A study of Mus musculus with 8 samples.

Results

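The 9 genes described here belong to the tumour necrosis factor (TNF) superfamily of ligands and to its receptors. They were chosen by symbol, and each symbol matched 1 of the 36806 gene identifiers in the deposited tables. The 6 ligand genes are Tnf, Lta, Ltb, Tnfsf9, Tnfsf10 and Tnfsf13b, and the 3 receptor genes are Tnfrsf1a, Tnfrsf1b and Fas. Their poly(A) RNA was measured by sequencing in mouse bone marrow-derived macrophages, cells grown from the marrow of C57BL/6 mice. All 8 cultures were differentiated for 7 days in medium conditioned by L929 fibroblasts, which supply the macrophage growth factor CSF1. 1 culture stayed untreated. The other 7 each received a single agent for 4 h: interferon gamma (IFNg) at 100 ng/ml, interleukin 4 (IL4) at 10 ng/ml, tumour necrosis factor (TNFa) at 10 ng/ml, transforming growth factor beta 1 (TGFb1) at 1 ng/ml, interleukin 1 beta (IL1b) at 10 ng/ml, the mycoplasmal lipopeptide MALP2 at 1 ng/ml, or CpG DNA at 100 nM. MALP2 is sensed by Toll-like receptors at the cell surface and CpG DNA by one in endosomes. No genotype other than the strain is labelled, and the labels do not say how many mice gave marrow to a culture.

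TNF superfamily ligands are trimeric proteins, most of them made as membrane proteins that a protease can release. Each trimer gathers its receptors into a cluster. Receptors with a cytoplasmic death domain, such as TNF receptor 1 and Fas, can recruit adaptors that lead to NF-kB activation or to caspases, while TNF receptor 2 lacks that domain and binds TRAF adaptors. Macrophages are a major source of TNF, and its messenger is short-lived because proteins such as tristetraprolin bind AU-rich elements in its 3′ UTR.

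Levels are given in FPKM, fragments scaled by transcript length and by the size of the library. The 7 tables each hold 1 stimulated library beside the same untreated library, and levels across libraries were put on 1 scale through those untreated values. Ranges in parentheses are the authors' confidence bounds within a library. They carry no replicate error, because each group held 1 library, so no difference below has a replicate check or a test. Changes are log2 of (stimulated FPKM + 1) over (untreated FPKM + 1) within 1 table, which understates changes of low genes. A gene entered the counts of higher and lower genes when it reached 1 FPKM in at least 1 of the pair, and it was counted when the change was at least 2-fold. The untreated library is shared by all 7 comparisons, so an unusual value there would move all of them.

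Markers of macrophages were present throughout: all 7 usable genes of 8 were at 1 FPKM or more in every library, with Csf1r at 1045 to 1543 FPKM. Of 12 T and NK cell markers 2 or 3 reached 1 FPKM, with summed levels of 14.9 to 47.5 FPKM, and Cd3e did not exceed 0.0293 FPKM. Of 9 B cell markers 4 reached 1 FPKM, and their summed level was 241 FPKM untreated against 40.4 to 74.4 FPKM in the stimulated libraries. Dendritic cell markers reached 1 FPKM for 1 or 2 of 6 genes, with summed levels of 4.00 to 11.7 FPKM, and neutrophil markers for 4 to 8 of 8, with summed levels of 153 to 416 FPKM. Summed levels of 6 stromal markers came to 87.1 FPKM with IFNg, where all other libraries had 40.6 to 48.0 FPKM. Genes seen by a single fragment put 1 fragment at 2.04 times its untreated FPKM in the IFNg library, 1.44 times after MALP2 and 1.04 to 1.24 times for the remaining 5 agents, which makes the IFNg library the least deep. In bulk RNA, fewer cells of a type and less RNA per cell cannot be told apart.

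The sequences before the start sites of Tnf and the receptors, and a stretch of the Tnf messenger, are shown first. The promoter windows are the 250 bases before the RefSeq transcription start (GRCm38.p6), and 4 of them are printed, chosen after their values were seen. Both strands were searched for an NF-kB core (GGNNNTTCC), the GAS element of interferon-responsive genes (TTCNNNGAA), an interferon regulatory factor element (GAAANNGAA) and an AP-1 site (TGANTCA), and capitals mark the matches.
Tnf, 17:35202008-35202257, minus strand: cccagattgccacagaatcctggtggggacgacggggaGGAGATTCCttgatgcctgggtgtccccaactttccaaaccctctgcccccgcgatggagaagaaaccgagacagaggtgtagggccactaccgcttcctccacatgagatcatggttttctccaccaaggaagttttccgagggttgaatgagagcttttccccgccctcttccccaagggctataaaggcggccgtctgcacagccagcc
Fas, 19:34290409-34290658, plus strand: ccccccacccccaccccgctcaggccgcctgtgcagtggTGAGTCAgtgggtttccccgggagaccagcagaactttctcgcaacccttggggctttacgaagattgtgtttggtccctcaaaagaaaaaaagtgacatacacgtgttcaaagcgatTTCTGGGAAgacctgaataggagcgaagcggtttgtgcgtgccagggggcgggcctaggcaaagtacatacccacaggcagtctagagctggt
Tnfrsf1b, 4:145246871-145247120, minus strand: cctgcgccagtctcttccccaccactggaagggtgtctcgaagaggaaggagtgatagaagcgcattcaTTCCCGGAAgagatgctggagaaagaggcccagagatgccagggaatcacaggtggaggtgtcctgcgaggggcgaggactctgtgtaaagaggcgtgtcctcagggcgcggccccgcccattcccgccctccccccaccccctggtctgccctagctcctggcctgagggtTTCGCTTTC
Tnfrsf1a, 6:125349509-125349722, plus strand, 214 bases free of annotated exons: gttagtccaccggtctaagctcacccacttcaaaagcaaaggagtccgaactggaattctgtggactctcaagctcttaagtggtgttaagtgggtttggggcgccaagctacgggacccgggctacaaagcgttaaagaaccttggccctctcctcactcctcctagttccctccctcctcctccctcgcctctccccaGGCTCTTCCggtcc
In the Tnf window the capitals mark 1 NF-kB core that begins 212 bases before the start. The Fas window holds an AP-1 site and a GAS element, the Tnfrsf1b window a GAS element and, on the opposite strand, an interferon regulatory factor element, and the printed Tnfrsf1a stretch an NF-kB core. The whole 250-base window of Tnfrsf1a also holds a GAS element outside the printed stretch.

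Promoter windows were found for 8 of the 9 members, 9 windows in all because Tnfsf13b has 2 starts. An NF-kB core was found in 3 of the 9 windows (Tnf, Ltb, Tnfrsf1a), beside 15.7% of all 32851 promoter windows of that length. GAS elements were found in 5 (Lta, Ltb, Tnfrsf1a, Tnfrsf1b, Fas), beside 7.02% of all windows. Interferon regulatory factor elements were found in 2 (Tnfsf13b, Tnfrsf1b), beside 7.13%, and AP-1 sites in 2 (Tnfsf13b, Fas), beside 6.75%. Both Tnfsf13b matches lie in the window of its downstream start, within bases annotated as an exon of that gene. The window of its upstream start held no match. The GAS element of Tnfrsf1a also lies within annotated exon bases. No matches overlapped one another, and the Tnfsf10 window held none of these letters. A match describes the sequence and is no evidence of binding.

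The 3′ UTRs of the members were searched for the AU-rich nonamer TTATTTATT. The Tnf 3′ UTR, 764 bases in GENCODE M21, holds 5 copies, Lta and Tnfsf13b hold 1 each and the other 6 members hold none. Of 21020 genes 7.57% hold at least 1 copy, and 39 genes hold at least as many as Tnf. The 30 bases below, from the Tnf 3′ UTR, show 4 copies packed together, with the nonamers in capitals where they run into each other.
Tnf 3′ UTR, GRCm38 17:35199678-35199707, minus strand: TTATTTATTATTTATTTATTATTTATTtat

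Over the 7 members that reached 1 FPKM, all of which did so in the untreated library too, IFNg gave changes of at least 2-fold in 6, CpG in 5, MALP2 and TNFa in 4 each, IL1b in 3, and TGFb1 and IL4 in 2 each. Lta and Ltb stayed under 1 FPKM in every library and entered no count. After IFNg 5 of the 7 were at least 2-fold higher (Tnf, Tnfsf9, Tnfsf10, Tnfrsf1a, Fas) beside 10.7% of the 12813 genes measured, and 1 was lower (Tnfrsf1b) beside 12.7%. After MALP2 4 were higher (Tnf, Tnfsf9, Tnfrsf1b, Fas) beside 9.53% of 12722 genes, and 0 were lower beside 11.7%. After CpG the same 4 genes were higher beside 9.43% of 12769 genes, and Tnfsf13b was lower beside 11.2%. TNFa also gave these 4 higher members beside 8.92% of 12825 genes, and 0 lower beside 10.4%. With IL1b 3 were higher (Tnf, Tnfsf9, Fas) beside 7.29% of 12768 genes, and 0 were lower beside 8.57%. With TGFb1 Tnf was higher beside 7.15% of 12847 genes and Fas lower beside 9.15%. IL4 gave 0 higher members beside 9.86% of 12908 genes and 2 lower ones (Tnfsf13b, Tnfrsf1b) beside 11.9%.

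In the authors' deposited table, 5 members were both at least 2-fold changed and called significant after IFNg, beside 15.9% of genes, and 2 after IL4, beside 14.9%. The authors' deposited table likewise held 4 such members after TNFa, beside 13.6%, 2 after TGFb1, beside 11.7%, and 3 after IL1b, beside 11.9%. For MALP2 the authors' deposited table held 4, beside 14.3%, and for CpG 5, also beside 14.3%. The median log2 change over the 7 members was 1.93 after IFNg, -0.80 after IL4, 1.82 after TNFa, -0.49 after TGFb1, 0.91 after IL1b, 2.29 after MALP2 and 2.58 after CpG, where the median of all genes measured lay between -0.12 and -0.08. Set against the median of the other 6 stimulated libraries in place of the untreated one, the counts were 5 members after IFNg, 4 after IL4, 2 after TNFa, 4 after TGFb1, 0 after IL1b, 2 after MALP2 and 3 after CpG. The share of all genes under that reference is not given here. The members were chosen with results of these data known, so the counts and shares describe them and single out nothing.

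**Figure D1:**
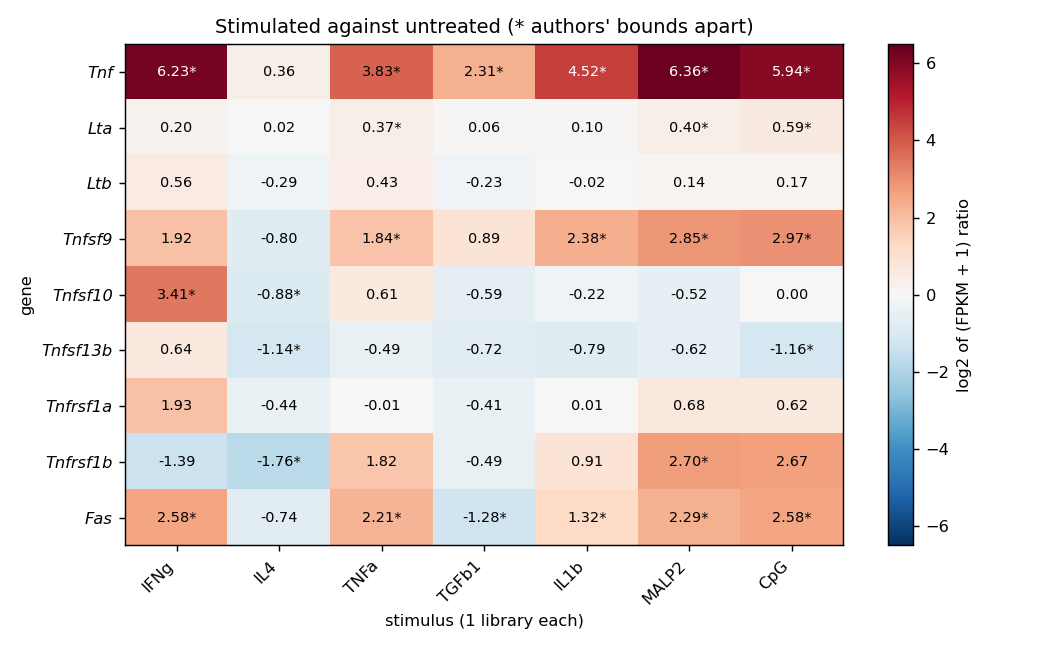
Heatmap of log2 change on the FPKM + 1 scale for the 9 members (rows) under the 7 agents (columns), each against the untreated library of the same table. An asterisk marks a pair of libraries whose authors' bounds do not overlap. Tnf is higher by 2.31 or more under 6 agents, and Tnfrsf1b runs from -1.76 under IL4 to 2.70 under MALP2.

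Tnf encodes the founding ligand of the family and had the highest level of the 6 ligand genes in every library, though its bounds overlapped those of Tnfsf9 and Tnfsf13b in the untreated one. Its level was 7.12 FPKM untreated (3.10 to 11.1), 9.41 after IL4, 39.1 after TGFb1, 114 after TNFa, 185 after IL1b, 498 after CpG, 613 after IFNg and 668 after MALP2. Bounds of all libraries but IL4 lay above those of the untreated one, and the IFNg, MALP2 and CpG libraries formed a top group whose bounds overlap (266 to 960, 293 to 1042 and 222 to 774 FPKM). On the FPKM + 1 scale the level was 82.1-fold higher after MALP2, 75.0-fold after IFNg, 61.3-fold after CpG, 22.9-fold after IL1b, 14.2-fold after TNFa and 4.95-fold after TGFb1, and 1.28-fold after IL4. In the order of levels, only the steps from TNFa to TGFb1 and from TGFb1 to IL4 had bounds apart. The authors' deposited table calls Tnf significant after every agent except IL4, where its q-value was 0.675.

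The share of Tnf in the summed ligand RNA was lowest in the untreated library. The 6 ligand levels summed to 16.5 FPKM untreated, of which Tnf made 43.1%. Its share was 92.2% of 665 FPKM after IFNg, 93.3% of 716 FPKM after MALP2 and 90.4% of 550 FPKM after CpG. It was 84.1% of 220 FPKM after IL1b, 80.8% of 141 FPKM after TNFa, 75.5% of 51.8 FPKM after TGFb1 and 72.3% of 13.0 FPKM after IL4.

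**Figure D2:**
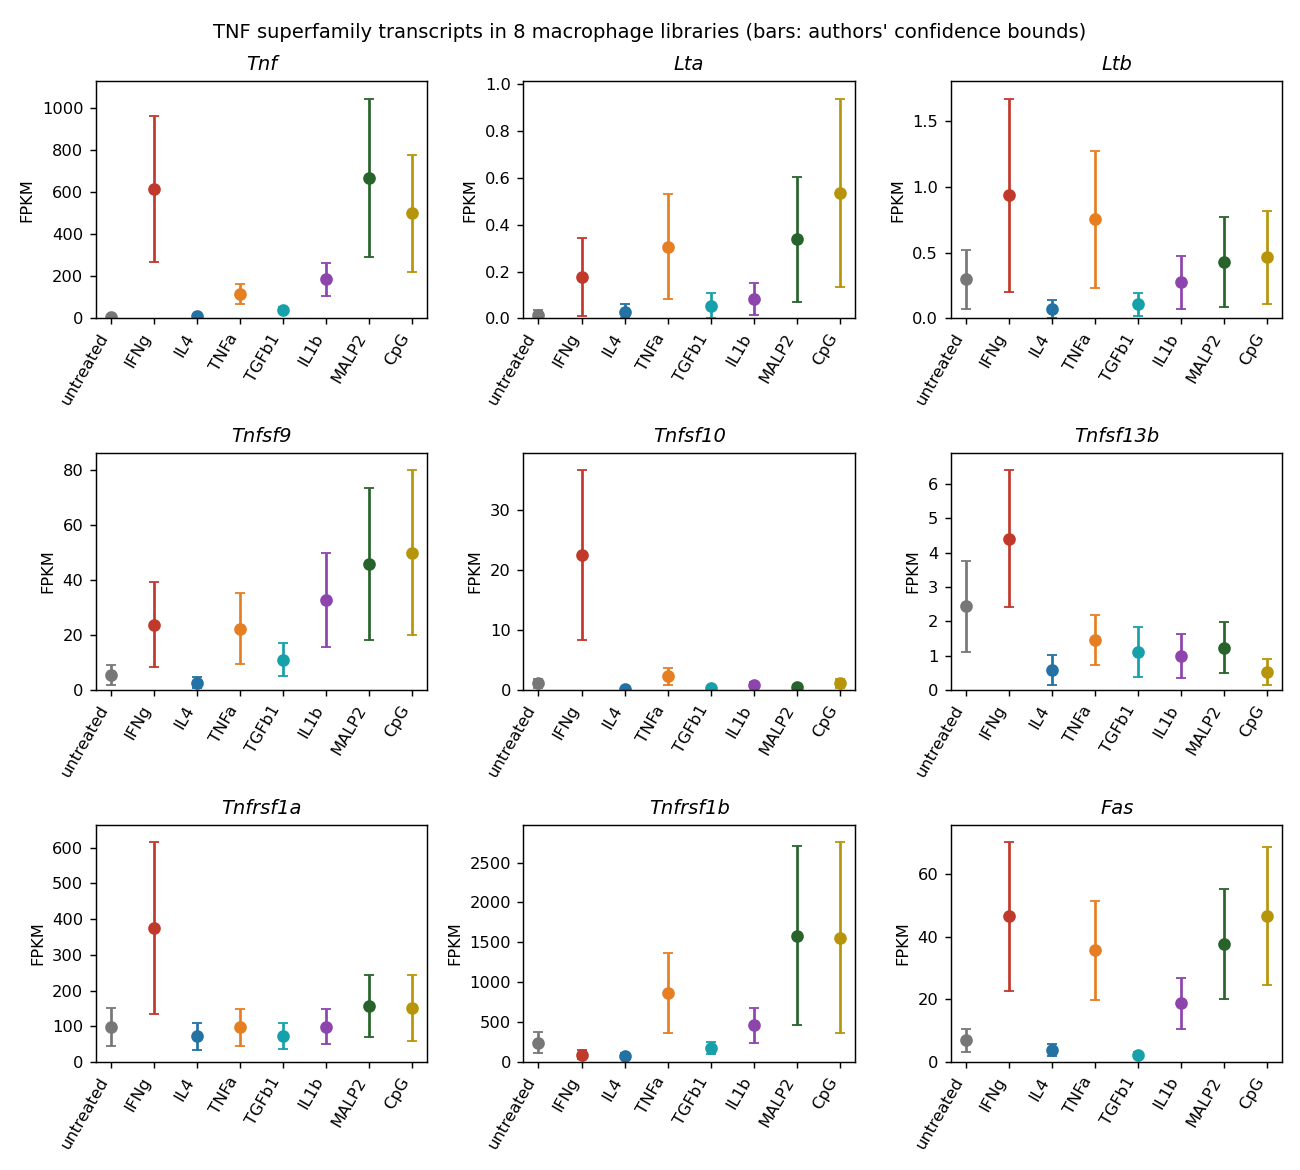
FPKM of each member (panels, linear axes of different height) in the 8 libraries, with the authors' confidence bounds as bars. Tnf spans 7.12 to 668 FPKM, Tnfsf10 stands at 22.5 FPKM after IFNg and no higher than 2.28 FPKM elsewhere, and Lta and Ltb stay under 1 FPKM.

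Lta encodes lymphotoxin alpha, a secreted ligand of both TNF receptors, and lies next to Tnf. The deposited mm9 loci put Ltb at 17:35331451-35333250, Tnf at 17:35336334-35338949 and Lta at 17:35340110-35342296, with 3083 bases between Ltb and Tnf and 1160 between Tnf and Lta. Tnf and Lta are on the minus strand and Ltb on the plus strand of the GENCODE annotation. Lta was at 0.0124 FPKM untreated, 0.0256 after IL4, 0.0533 after TGFb1, 0.0830 after IL1b, 0.176 after IFNg, 0.307 after TNFa, 0.338 after MALP2 and 0.537 after CpG.

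These Lta levels rest on few fragments, which steps in the deposited values and bounds put at 1 untreated, 2 after IL4, 4 after TGFb1, 6 after IL1b, 7 after IFNg, 20 after TNFa, 19 after MALP2 and 40 after CpG. The FPKM of 1 fragment was set in libraries whose bounds, taken as 2 Poisson standard deviations, gave a whole number up to 6. It was carried to the other libraries by relative depth, and the results lay within 0.0947 of a whole number. After IFNg, TNFa, MALP2 and CpG the authors' bounds were wider than counting error on these fragments gives. Their upper bounds were 1.95, 1.73, 1.79 and 1.75 times the FPKM. The FPKM ratio to untreated was 43.4 after CpG, with an exact 95% interval of 7.35 to 1756 that covers counting error only. It was 27.3 (4.34 to 1135) after MALP2 and 24.8 (3.97 to 1029) after TNFa. After IFNg it was 14.2 (1.83 to 642), and after IL4, TGFb1 and IL1b the interval included 1. The authors' deposited table calls Lta after TNFa (q = 0.0202), MALP2 (q = 0.0176) and CpG (q = 0.00442). It does not call IFNg or the remaining agents. The authors' bounds after IFNg (0.00921 to 0.343 FPKM) overlapped the untreated ones (0 to 0.0371 FPKM), so the counting interval alone does not separate IFNg. The summed T and NK cell markers, of cells that also make Lta, were 35.4 FPKM untreated, 36.2 after TNFa, 14.9 after MALP2 and 27.3 after CpG, and their part in Lta was not tested.

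Ltb encodes lymphotoxin beta, which anchors lymphotoxin alpha at the membrane for the lymphotoxin beta receptor. It was at 0.296 FPKM untreated, 0.0679 after IL4, 0.106 after TGFb1, 0.275 after IL1b, 0.425 after MALP2, 0.462 after CpG, 0.752 after TNFa and 0.934 after IFNg. By the same arithmetic these levels stand on 18 fragments untreated and 4 to 37 in the other libraries. Bounds of every stimulated library overlapped the untreated ones, and the authors' deposited table calls none of the 7 comparisons. Summed B cell markers, a lineage that makes Ltb, were 241 FPKM untreated and 40.4 FPKM in the IFNg library where Ltb was highest. Their part in Ltb was not tested.

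The genes around Tnf did not share its range. Of 9 neighbours on chromosome 17, 1 was at least 2-fold higher after IFNg (Abhd16a, 1.96 in log2 change, a lipase gene), 1 was lower after IL4 (Lst1, -1.14, a leukocyte transcript) and 0 passed under the other 5 agents. Their median log2 change lay between -0.31 after TGFb1 and 0.35 after IFNg. Of all genes measured 10.7% were higher after IFNg and 11.9% lower after IL4. Under the other 5 agents 7.15% to 9.53% were higher and 8.57% to 11.7% lower. Ddx39b, an RNA helicase, was at 76.0 FPKM untreated and 102 to 145 FPKM in the stimulated libraries, with log2 changes of 0.43 to 0.92. Nfkbil1 and Atp6v1g2 share a single deposited locus, so their loci cannot be told apart.

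**Figure D3:**
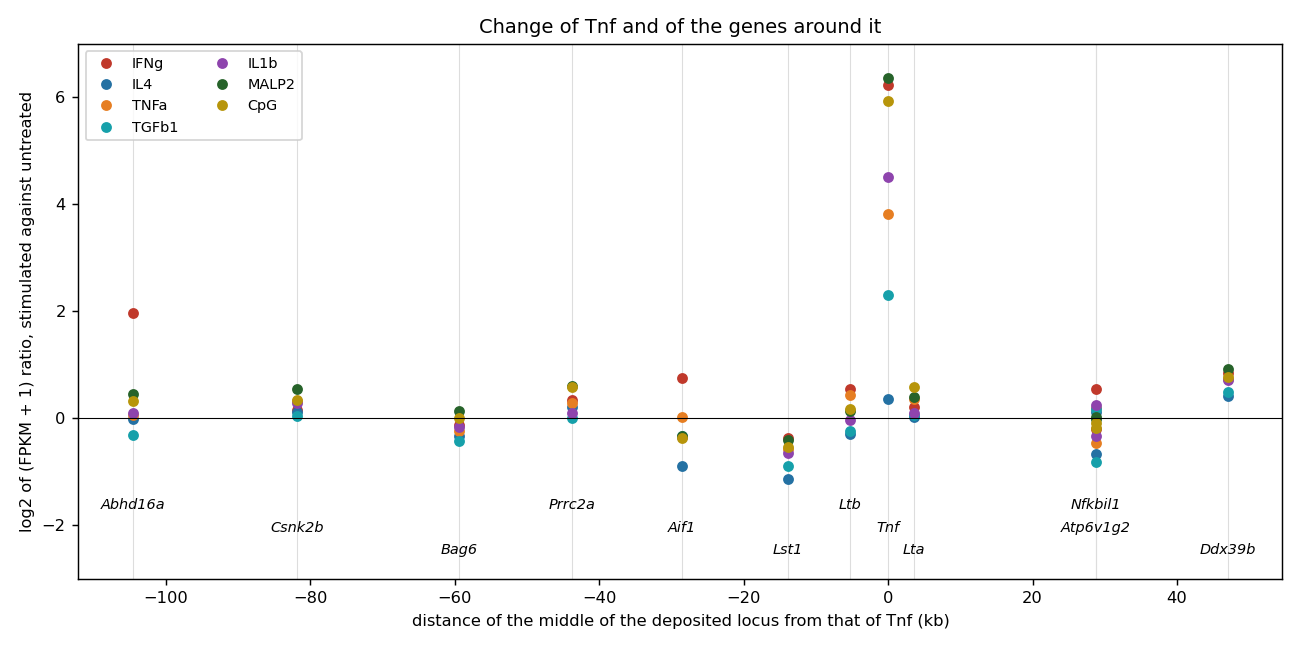
Log2 change on the FPKM + 1 scale of Tnf, Lta, Ltb and their 9 neighbours against distance from Tnf in kilobases, by agent. Tnf reaches 6.36 after MALP2, while the neighbours lie between -1.14 (Lst1 after IL4) and 1.96 (Abhd16a after IFNg).

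Tnfsf9 encodes the CD137 ligand, a costimulatory ligand for T cells. Its level was 2.75 FPKM after IL4, 5.49 untreated (1.97 to 9.02), 11.0 after TGFb1, 22.3 after TNFa, 23.8 after IFNg, 32.7 after IL1b, 45.8 after MALP2 and 49.9 after CpG. In all, 5 agents gave at least a 2-fold higher level, with log2 changes of 1.84 after TNFa, 1.92 after IFNg, 2.38 after IL1b, 2.85 after MALP2 and 2.97 after CpG. Bounds cleared the untreated ones for TNFa, IL1b, MALP2 and CpG, and those of IFNg (8.50 to 39.1 FPKM) overlapped them. No neighbours in the order of levels were separated. The authors' deposited table calls these 5 comparisons, with q-values from 1.85e-05 after CpG to 0.0142 after IFNg. The deposited locus (mm9 17:57231457-57247180) spans 15724 bases where the annotated gene spans 2433 in GRCm38, and it overlaps Gm11110, which did not exceed 4.15 FPKM.

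Its receptor gene Tnfrsf9 was in the same RNA. Tnfrsf9 was at 0.256 FPKM untreated, 0.288 after IL4, 0.488 after TGFb1, 0.877 after IFNg, 1.09 after IL1b, 5.11 after TNFa, 25.4 after CpG and 35.7 after MALP2. MALP2 and CpG therefore gave the highest levels of both the ligand and the receptor messenger among these 8 libraries.

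Tnfsf10 encodes TRAIL, a death ligand. Like Tnfrsf1a among the members, it was at least 2-fold higher under 1 agent alone, IFNg. Its level was 22.5 FPKM after IFNg (8.33 to 36.6), 2.28 after TNFa, 1.15 untreated, 1.14 after CpG, 0.850 after IL1b, 0.488 after MALP2, 0.439 after TGFb1 and 0.184 after IL4. The IFNg bounds lay above those of all other libraries. The change after IFNg was 10.7-fold, 3.41 in log2, and the highest level was 122 times the lowest, that of IL4. After IL4 the log2 change was -0.88 with bounds apart, and the authors' deposited table calls it (q = 0.00156) as well as IFNg (q = 7.42e-09). Its mouse receptor gene Tnfrsf10b was at 0.945 to 2.12 FPKM.

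Tnfsf13b encodes BAFF, a survival factor for B cells. Its level was 4.40 FPKM after IFNg, 2.44 untreated (1.12 to 3.76), 1.46 after TNFa, 1.23 after MALP2, 1.11 after TGFb1, 0.994 after IL1b, 0.585 after IL4 and 0.532 after CpG. Every agent but IFNg gave a value under the untreated one, and only those of IL4 and CpG had bounds apart from it. The log2 change was -1.14 after IL4 and -1.16 after CpG, 2.20-fold and 2.23-fold lower, and 0.64 after IFNg. The authors' deposited table calls the IL4 (q = 0.0136) and CpG (q = 0.00648) comparisons. Tnfrsf13b, which encodes the receptor TACI for this ligand, was at 15.8 to 22.8 FPKM in all libraries.

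The 3 receptor genes did not move together. Tnfrsf1a, encoding TNF receptor 1, was at 375 FPKM after IFNg (135 to 615), 157 after MALP2, 151 after CpG, 98.7 after IL1b, 97.8 untreated (45.1 to 151), 97.0 after TNFa, 73.5 after TGFb1 and 71.7 after IL4. IFNg alone gave a change of at least 2-fold, 3.80-fold or 1.93 in log2, and its bounds overlapped the untreated ones. The authors' deposited table gives q = 0.0220 for it and calls none of the other 6 comparisons. The highest level was 5.23 times the lowest, the narrowest range of the 9 members. Of the stromal markers, Col1a1 (31.4 against 15.1 FPKM untreated), Col1a2 (49.2 against 23.2 FPKM), Col3a1 and Lum were highest in the same library. Dcn was highest after TNFa (1.62 FPKM, beside 1.25 after IFNg) and Pdgfrb after CpG (3.50 FPKM, beside 1.86 after IFNg). The part of stromal cells in the IFNg values was not tested.

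Tnfrsf1b encodes TNF receptor 2. Its level was 71.1 FPKM after IL4, 92.4 after IFNg, 174 after TGFb1, 244 untreated (115 to 372), 458 after IL1b, 863 after TNFa, 1556 after CpG and 1584 after MALP2. MALP2, CpG and TNFa gave 6.48-fold, 6.36-fold and 3.53-fold higher levels, and IL4 and IFNg 3.40-fold and 2.62-fold lower ones. Bounds were apart from untreated for MALP2 (465 to 2704) and IL4 (33.3 to 109), and those of CpG (358 to 2755) and TNFa (360 to 1366) overlapped them by a narrow margin. The IFNg bounds (36.6 to 148) also overlapped the untreated ones. The authors' deposited table calls MALP2 (q = 0.000646), CpG (q = 0.00174), IL4 (q = 0.00913) and TNFa (q = 0.0102), and gives q = 0.125 for IFNg.

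The ratio of the receptor messengers, both per length, was lowest after IFNg and highest after CpG. Tnfrsf1b over Tnfrsf1a was 2.49 untreated, with 0.766 to 8.24 from the extremes of the bounds. It was 0.246 (0.0595 to 1.10) after IFNg, 0.991 (0.302 to 3.29) after IL4 and 2.37 (0.860 to 6.90) after TGFb1. It was 4.65 (1.65 to 13.4) after IL1b, 8.89 (2.43 to 29.9) after TNFa, 10.1 (1.90 to 38.8) after MALP2 and 10.3 (1.47 to 46.7) after CpG. The IFNg range did not overlap those of IL1b, TNFa, MALP2 and CpG, and every range overlapped that of the untreated library. IFNg was the one agent with more Tnfrsf1a than Tnfrsf1b outside IL4, where the levels were nearly equal. The summed level of both was 143 FPKM after IL4, 247 after TGFb1, 342 untreated, 468 after IFNg, 557 after IL1b, 960 after TNFa, 1708 after CpG and 1741 after MALP2.

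**Figure D4:**
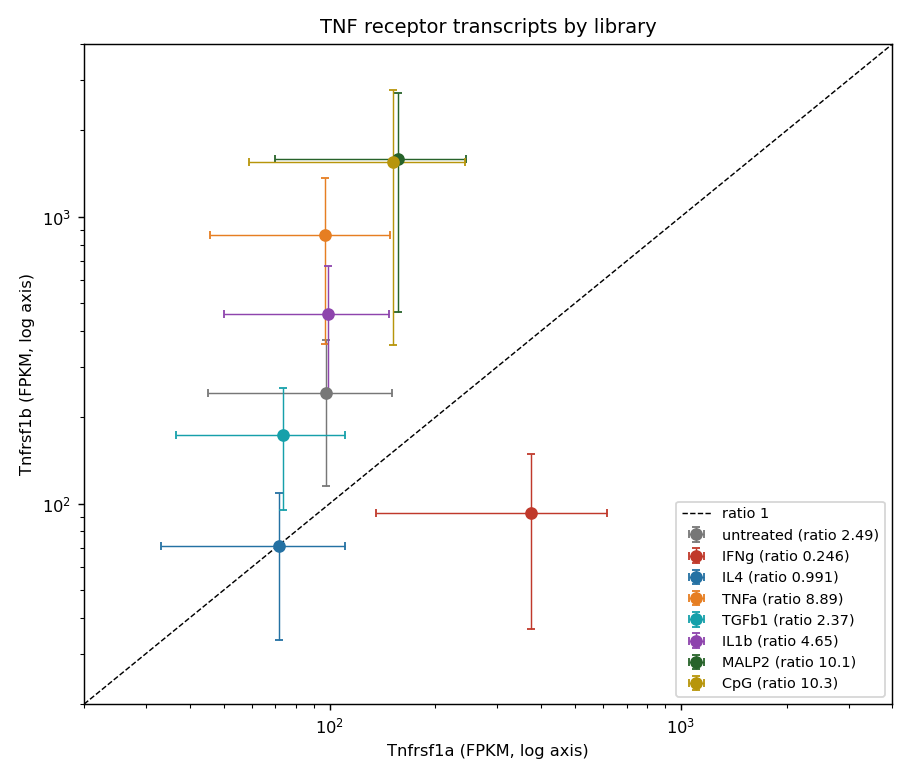
Tnfrsf1b against Tnfrsf1a in FPKM, both axes logarithmic, 1 point per library with the authors' bounds and a line at equal levels. IFNg lies under the line at a ratio of 0.246, IL4 on it at 0.991, and MALP2 and CpG farthest above it at 10.1 and 10.3.

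Fas, the receptor of Fas ligand, was higher after 5 agents and lower after TGFb1. Its level was 2.27 FPKM after TGFb1 (1.21 to 3.33), 3.73 after IL4, 6.90 untreated (3.33 to 10.5), 18.7 after IL1b, 35.6 after TNFa, 37.8 after MALP2, 46.4 after IFNg and 46.4 after CpG. All but IL4 had bounds apart from the untreated library, TGFb1 only just. The change was 6.00-fold after CpG, 5.97-fold after IFNg, 4.90-fold after MALP2, 4.64-fold after TNFa, 2.49-fold after IL1b and 2.43-fold lower after TGFb1. The authors' deposited table calls these 6, with q-values from 2.17e-06 after CpG to 0.0151 after IL1b. Fasl, the ligand gene, is listed at 0 in all 8 libraries.

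Between neighbours in the order of levels, 4 of the 63 steps over the 9 members had bounds apart, so most fine orderings are not separated. The share of such steps over all genes is not given here, so this count describes the members only. Over the 8 libraries Tnf levels went most with Tnfsf9 (Pearson r = 0.93) and Fas (0.85) among the members, while Tnfrsf1a and Tnfrsf1b had r = 0.05. These are descriptions on log2(FPKM + 1) over 8 libraries from 1 experiment, of which the untreated one enters once. Among 5519 other genes Junb (r = 0.986) and ENSMUSG00000069106 (0.982) were the most like Tnf, with 94 genes at 0.9 or above. The nearest patterns to Tnfsf10 were Tgtp1 (0.994) and Igtp (0.993), both interferon-induced GTPase genes, with 190 genes at 0.9 or above. The nearest to Fas were Mllt6 (0.993) and Mvp (0.983), to Tnfrsf1a Bst1 (0.989) and Chmp4b (0.988), and to Tnfrsf1b Slc27a4 (0.978) and Mthfd2 (0.967). For Tnfsf9 they were Cebpb (0.970) and Aldoart2 (0.969), and for Tnfsf13b Pmaip1 (0.953) and Csrp1 (0.953). Lta had Ext1 (0.986) and Car2 (0.974), and Ltb had Il2rg (0.975) and Cd74 (0.969), on levels under 1 FPKM.

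Most other ligand genes of the superfamily were below 1 FPKM. Of 11 other ligand genes, 3 or 4 reached 1 FPKM. Tnfsf12, the gene of TWEAK, was also on the list but matched no deposited gene identifier, so its level is not known here. Tnfsf13, encoding the B cell factor APRIL, was at 16.4 FPKM after MALP2 against 32.7 untreated, a log2 change of -0.95. Tnfsf14, encoding LIGHT, was at 1.26 FPKM after MALP2 against 5.00 (-1.40), and Tnfsf4, encoding OX40 ligand, at 1.45 FPKM after TNFa against 0.0313 (1.25). Tnfsf8, encoding CD30 ligand, was at 0.183 FPKM after IL4 against 1.17 (-0.90). At most 1 of these ligands was at least 2-fold higher and at most 1 lower under any agent. Of all genes measured, 7.15% to 10.7% were higher and 8.57% to 12.7% lower.

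Of 25 other receptor genes, 13 or 14 reached 1 FPKM. Those at least 2-fold higher and lower were 3 and 0 after IFNg, 5 and 1 after IL4, 4 and 1 after TNFa, 3 and 1 after TGFb1, 4 and 1 after IL1b, 3 and 1 after MALP2 and 4 and 1 after CpG. Their median log2 change lay between 0.09 after TGFb1 and 0.52 after MALP2. Over all genes measured, 7.15% (TGFb1) to 10.7% (IFNg) were higher and 8.57% (IL1b) to 12.7% (IFNg) lower. Cd40, the receptor of CD40 ligand, was at 14.9 FPKM untreated, 8.76 after TGFb1, 55.0 after IL1b, 64.1 after IL4, 147 after TNFa, 321 after MALP2, 431 after CpG and 1059 after IFNg. TGFb1 was the one agent with a lower Cd40 level than untreated. Its bounds (6.17 to 11.3 FPKM) overlapped the untreated ones (10.1 to 19.8 FPKM), and the authors' deposited table does not call it. Tnfrsf12a, the receptor of TWEAK, stood at 8.91 FPKM before stimulation and at 16.1 (MALP2) to 96.7 FPKM (IFNg) with an agent. Tnfrsf14, the receptor HVEM, was at 51.7 FPKM untreated, 7.46 after TGFb1, 9.22 after IL4, 22.9 after IL1b and 56.2 to 108 after the other 4 agents. Ltbr, encoding the lymphotoxin beta receptor, was at 38.5 to 87.8 FPKM.

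Among 22 adaptor and signalling genes, Tnfaip3, Traf1 and Tnip1 had the largest changes. Those at least 2-fold higher and lower were 6 and 0 after IFNg, 2 and 3 after IL4, 5 and 0 after TNFa, 1 and 1 after TGFb1, 5 and 0 after IL1b, 6 and 1 after MALP2 and 6 and 0 after CpG. These counts stand beside 7.15% to 10.7% higher and 8.57% to 12.7% lower among all genes measured. Tnfaip3, encoding the ubiquitin editor A20 that limits NF-kB, was at 6.66 FPKM untreated, 14.6 after TGFb1, 18.0 after IL4, 61.9 after IL1b, 85.7 after TNFa, 165 after MALP2, 190 after IFNg and 233 after CpG. Traf1, an adaptor of TNF receptor 2, was at 9.99 FPKM untreated, 1.42 after IL4, 2.92 after TGFb1, 40.3 after IFNg, 46.0 after IL1b, 116 after TNFa, 132 after MALP2 and 144 after CpG. Tnip1, a partner of A20, was at 68.8 FPKM untreated and ranged from 26.6 after IL4 to 418 after CpG. Traf5 was at 21.5 FPKM after IL4 and 3.36 to 6.17 FPKM elsewhere.

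The 8 death signalling genes gave 5 higher and 0 lower members after IFNg, beside 10.7% and 12.7% of all genes measured. Their median log2 change was 1.49. Under any other agent at most 2 were higher and 1 lower, with medians from -0.36 to 0.18. The shares of all genes were then 7.15% to 9.86% higher and 8.57% to 11.9% lower. Mlkl, the executor of necroptosis, was highest with IFNg, 151 FPKM, where the other 7 libraries held 11.9 to 21.6 FPKM. Cflar, an inhibitor of death receptor signalling, was at 85.0 FPKM after IFNg against 24.0 untreated.

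Genes that release TNF or act on its messenger were a list of 13, with 4 higher and 0 lower after IFNg, 5 and 1 after IL4, 2 and 1 after TNFa, 2 and 1 after TGFb1, 2 and 2 after IL1b, 4 and 1 after MALP2 and 4 and 1 after CpG. Among all genes measured the shares were 7.15% to 10.7% higher and 8.57% to 12.7% lower. Zfp36 encodes tristetraprolin, which binds AU-rich elements such as those printed above. It was at 51.5 FPKM untreated, 55.7 after TGFb1, 84.7 after IL1b, 90.8 after TNFa, 91.8 after IL4, 312 after MALP2, 397 after CpG and 617 after IFNg. Zc3h12a, encoding the RNase regnase-1, was at 11.8 FPKM untreated, 160 after MALP2 and 180 after CpG, and 13.9 to 35.9 FPKM after the other 5 agents. Rhbdf2, which brings the TNF-releasing protease ADAM17 to the cell surface, was at 20.6 FPKM untreated, 92.4 after MALP2, 118 after IFNg and 128 after CpG. Adam17 itself was at 64.5 FPKM after IL4 to 156 FPKM after TNFa, beside 102 untreated. Timp3, an inhibitor of that protease, was at 28.8 FPKM after IFNg against 3.52 untreated and at 9.84 to 17.4 FPKM after the other 6 agents.

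**Figure D5:**
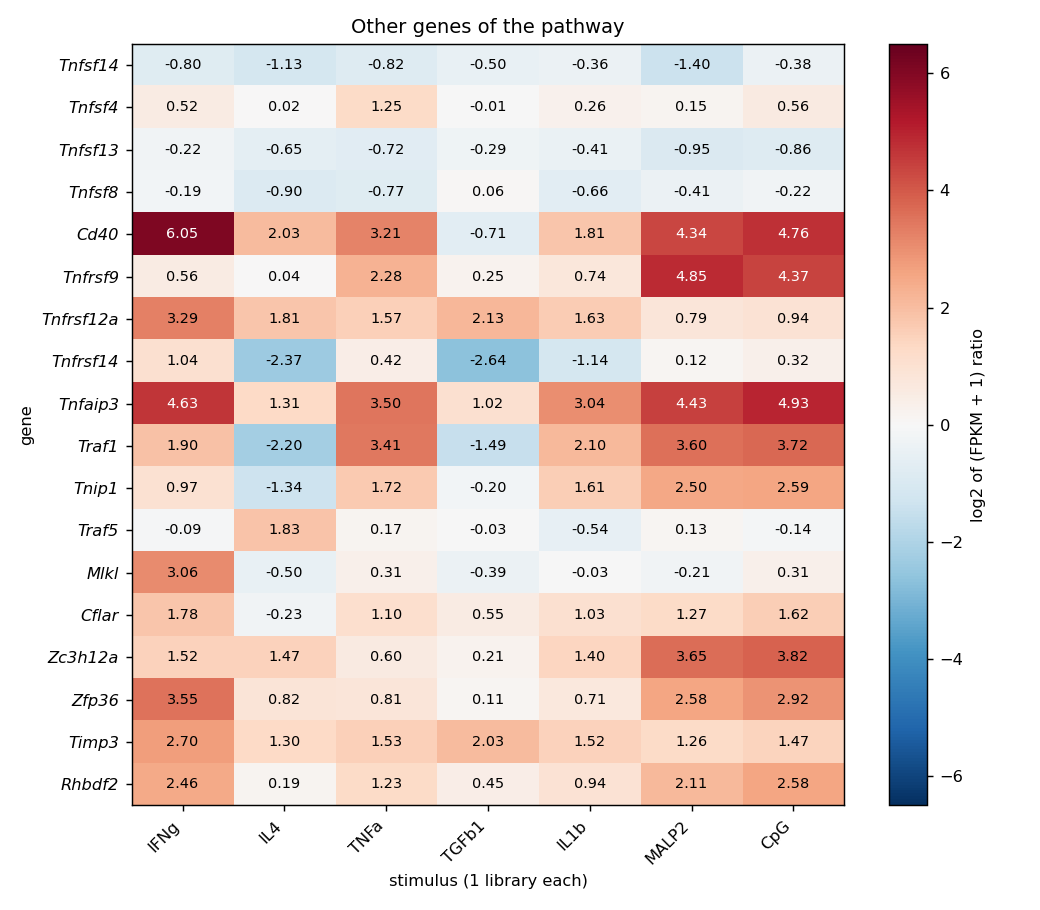
Heatmap of log2 change on the FPKM + 1 scale for up to 4 genes of each other list with the largest change (rows) under the 7 agents (columns). The neighbours of Tnf and the caspase genes are left out. Cd40 reaches 6.05 after IFNg and Tnfaip3 4.93 after CpG, while Tnfrsf14 reaches -2.64 after TGFb1.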

How the data were processed

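Per the submitters' processing notes, the authors aligned reads to mm9 with TopHat 1.3.1 and used Cufflinks 1.2.1 and Cuffdiff 1.2.1. Per the file headers, 7 deposited tables hold FPKM with lower and upper bounds for 1 stimulated and the untreated library, and 7 hold the authors' q-value and call. What level the bounds have, how many reads there were and whether libraries were stranded is not stated in those sources, and reads of overlapping genes cannot be told apart. mm9 loci count from 1.

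Symbols came from GENCODE M21 for 31840 identifiers. Genes with status OK in both libraries were used. Untreated values of the tables differ by 1 factor per table, and levels were joined by it. The pseudocount was 1 FPKM. Promoters came from RefSeq (GRCm38.p6), and 3′ UTRs from GENCODE M21 on GRCm38. All per-sample columns were mapped. The members and lists were chosen with earlier results of these data known, and the motifs, the receptor ratio and the fragment recovery were chosen after their values were seen. The rule names all members, up to 4 genes of each other list with the largest change in any comparison, and for each member the 2 genes of most similar pattern (at least 5 FPKM in 1 library, log2 range of at least 1). A few of the genes it names are left out of the text. Others (receptors of the ligands, Fasl, Adam17) were chosen after their values were seen. Alternatives were a pseudocount of 0.1 FPKM, a floor of 5 FPKM or none, centring on the median gene, and a reference made from the other 6 stimulated libraries. The counting script was tested on simulated data. The software was Python 3.11.15 with pandas 2.3.3, numpy 2.4.6, matplotlib 3.10.9 and scipy 1.17.1.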

Additional observations from a re-analysis of the deposited data

How the results depend on the processing

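The number of members at least 2-fold changed depended most on the reference. When the untreated library was replaced by the median over the other 6 agents, it went from 2 to 4 for IL4, from 4 to 2 for TNFa, from 2 to 4 for TGFb1, from 3 to 0 for IL1b, from 4 to 2 for MALP2 and from 5 to 3 for CpG, and from 6 to 5 for IFNg. A floor of 5 FPKM left 1 for IL4 and 4 for CpG, since fewer genes pass it. A pseudocount of 0.1 FPKM gave 4 for TGFb1, 3 for IL4, 4 for IL1b and 5 for MALP2, in each case by more lower members. Shares of all genes under these alternatives are not given here, so the counts describe the members only. Under the other reference 18 of 63 log2 changes turned sign, of which 6 had been at least 2-fold: Tnf at -1.57 for TNFa, -3.09 for TGFb1 and -0.72 for IL1b, Tnfsf9 at -0.20 for IFNg and -0.33 for TNFa, and Fas at -0.94 for IL1b. That reference asks whether an agent stands above the other agents, not above rest. Of 63 single log2 changes, that reference moved 25 beside the 6 just named, a pseudocount of 0.1 FPKM moved 15 and centring on the median gene moved 1. Centring turned the sign of 3 values near 0 (Tnfrsf1a after TNFa, Ltb after IL1b, Tnfsf10 after CpG), and that pseudocount turned none. The receptor ratio with a pseudocount of 1 FPKM, an alternative added after seeing the data, moved in no library beyond its range. With 1 library per group, no replicate could be left out and no spread between cultures is known. No paired analysis was possible because each group held 1 library and no result comes from a test. Read totals are unknown here, and Lta and Ltb rest on too few fragments for their order to be read.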
